A study of Homo sapiens with 6 samples.

Results

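The 45 genes described here encode the machinery that takes glucose to lactate and the genes that cells are known to switch on when oxygen is short. They were chosen by symbol: 5 genes of the hypoxia-inducible factor (HIF) system, 2 glucose transporters, 15 glycolytic enzymes, 3 PFKFB regulators, 7 genes of pyruvate and lactate handling, and 13 other hypoxia targets. The choice was made with earlier results of these data known. HCT116 cells, a human colorectal carcinoma line grown in DMEM with serum, were kept for 48 h with 40 µM NU7441, which blocks the DNA repair kinase DNA-PK, or with 0.1% (v/v) DMSO as vehicle. Each group held 3 samples, and the RNA of each was read on 1 Illumina bead array. The labels give no separate cultures and no genotype beyond the line, and they name no oxygen level, so the p-values rest on sample-to-sample spread that may be technical.

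Glycolysis splits glucose into pyruvate, and lactate dehydrogenase turns pyruvate into lactate, which regenerates the cofactor that the pathway uses up. When oxygen is short, the prolyl hydroxylases of the EGLN family no longer mark HIF alpha subunits for destruction, and these pair with ARNT and bind DNA at the core letters ACGTG or GCGTG. Many glycolytic genes are known HIF targets, and many are also known targets of other factors such as MYC. Colorectal carcinoma lines are known for high glycolysis even where oxygen is plentiful.

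Between 35.1% and 37.6% of the 47323 probes were detected per array, and the median intensity lay between 72.8 and 75.3. Correlation of log2 intensities was 0.985 or more within a group and between 0.961 and 0.970 across groups. Of 8 epithelial markers 6 had a kept probe, among them EPCAM with a mean log2 intensity of 10.49 in vehicle and 10.33 in NU7441 arrays. CDH1, E-cadherin, rose by 0.52 on the log2 scale, and VIL1 and LGALS4 had no kept probe. By brightest probe EPCAM, KRT18, KRT8, KRT19 and CDX2 did not pass, at -0.16, -0.16, 0.08, 0.07 and 0.05. A dimmer KRT18 probe was lower, at -0.49 (limma adjusted p = 0.0144). No kept probe was found for 6 leukocyte and 4 endothelial markers, and of 6 fibroblast markers 1 was kept, COL1A1, near background. With 3 arrays a group, their number limits precision. Each array reads bulk RNA, so fewer cells that express a gene and less RNA per cell cannot be told apart.

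Kept probes were those detected, with a detection p-value below 0.05, on every array of either group or of both, and a gene was counted by its brightest kept probe. Of the 45 genes, 36 had a kept probe, and the brightest was detected on all 6 arrays for 35 of them, the exception being HK2. Levels are log2 intensities, and changes are log2 fold changes, NU7441 over vehicle, ± SE of limma's fit with n = 3 arrays a group. P-values were adjusted by limma over all 14973 kept probes, with a threshold of 0.05. Of the 36 genes, 14 were higher and 5 were lower, with a median log2 fold change of 0.14. Over all 9342 genes with a kept probe 36.6% were called, 17.7% higher and 18.9% lower, with a median of 0.00, whereas 52.8% of the members were called, 38.9% higher and 13.9% lower. By probes, 19 of the members' 55 kept probes were higher and 7 lower, where 34.2% of all kept probes were called, 16.7% higher and 17.5% lower. The groups' arrays did not overlap in 22 of the 36 members, 15 of them higher and 7 lower in NU7441, against 49.9% of all genes, 24.2% higher and 25.6% lower. A call with a change of at least 0.5 in size was made for 12 of the 36 members, against 19.5% of all genes. One of at least 1 was made for 5 of the 36, NDRG1, ANGPTL4, BHLHE40, EPAS1 and HK2, against 2.62%. These sizes depended on background correction: without it, and in the authors' deposited log2 table, 7 called members had a change of at least 0.5 and 1, NDRG1, of at least 1. The count at 1 or more was 1 with a normexp offset of 50 as well, and 3 with 75th percentile scaling over all probes, with probes averaged by gene and without vehicle replicate 2. HK2 was kept through its vehicle arrays, so its difference is partly fixed by the filter.

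The direction of calls depended on scaling: 48.9% of the called probes were higher, against 36.5% with 75th percentile scaling over all probes and 65.9% with that scaling over probes detected on all arrays. The latter moved the median log2 fold change of all kept probes to 0.11. Leaving out vehicle replicate 1 or 3 or NU7441 replicate 2 left 3 lower members.

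**Figure D1:**
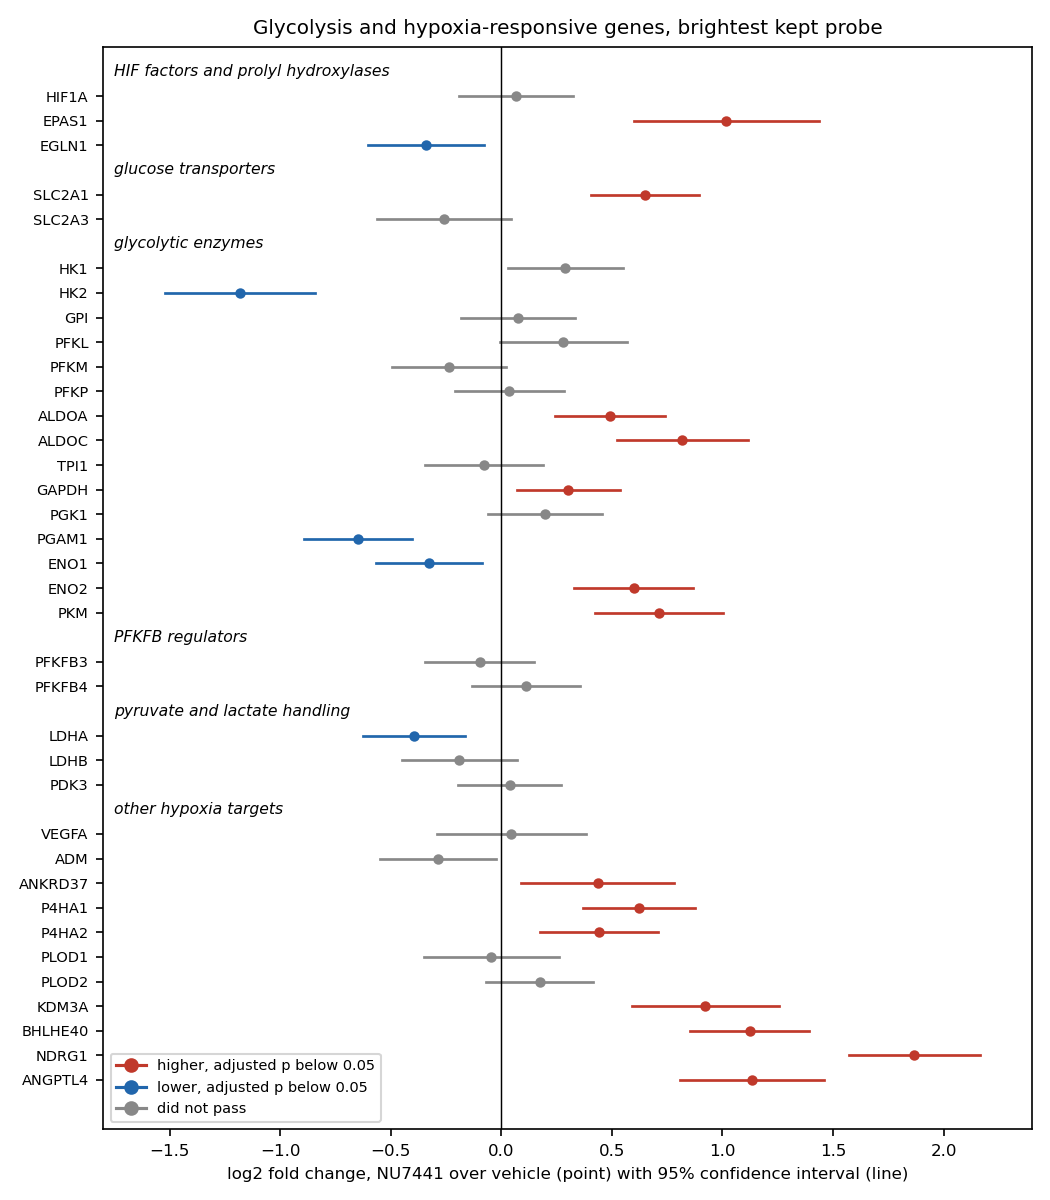
Log2 fold change of NU7441 over vehicle (x axis) for the brightest kept probe of each of the 36 measured genes (y axis), grouped by role, where points are estimates and lines 95% confidence intervals. NDRG1 lies at 1.87 on the right and HK2, detected on 1 of the 3 NU7441 arrays, at -1.18 on the left, and the other hypoxia targets hold 7 genes marked higher and 0 marked lower.

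The promoters of 4 genes are shown because, among the members that passed the test, they rank first by copies of the HIF core ACGTG in each direction, in genes that rose (BHLHE40 and ALDOC) and in genes that fell (LDHA and HK2), with ties broken by the size of the change. ANKRD37 held as many copies as ALDOC and is not shown. Each run is the 250 bases before the gene's start, 5′ to 3′ on the gene's strand, from RefSeq on GRCh38.p14. Capitals mark ACGTG on either strand, and CACGTG, the E-box known to bind MYC and BHLHE40, holds it on both strands and counts as 2 copies. The BHLHE40 run is chr3:4979187-4979436 on the plus strand, with 4 copies, and the ALDOC run is chr17:28576896-28577145 on the minus strand, with 3. The LDHA run is chr11:18394313-18394562 on the plus strand, with 5 copies, and the HK2 run is chr2:74833877-74834126 on the plus strand, with 2.
BHLHE40: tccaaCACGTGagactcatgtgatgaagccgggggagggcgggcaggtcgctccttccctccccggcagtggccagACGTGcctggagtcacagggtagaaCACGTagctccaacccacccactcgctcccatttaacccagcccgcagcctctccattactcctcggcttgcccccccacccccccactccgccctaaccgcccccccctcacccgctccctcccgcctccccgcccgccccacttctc
ALDOC: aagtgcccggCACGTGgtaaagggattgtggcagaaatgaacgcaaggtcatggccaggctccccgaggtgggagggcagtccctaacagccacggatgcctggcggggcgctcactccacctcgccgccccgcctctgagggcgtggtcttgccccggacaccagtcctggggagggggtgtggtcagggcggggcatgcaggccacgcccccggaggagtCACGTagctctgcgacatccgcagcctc
LDHA: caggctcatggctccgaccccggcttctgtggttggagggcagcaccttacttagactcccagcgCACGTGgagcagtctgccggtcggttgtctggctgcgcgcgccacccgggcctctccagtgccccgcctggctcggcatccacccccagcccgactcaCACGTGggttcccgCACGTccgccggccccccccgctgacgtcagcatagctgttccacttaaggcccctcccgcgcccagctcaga
HK2: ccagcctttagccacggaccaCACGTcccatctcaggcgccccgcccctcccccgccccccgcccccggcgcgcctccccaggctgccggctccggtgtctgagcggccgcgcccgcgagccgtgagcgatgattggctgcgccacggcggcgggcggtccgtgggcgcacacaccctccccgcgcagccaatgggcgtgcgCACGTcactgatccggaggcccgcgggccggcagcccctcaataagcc

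The motif stood on both sides of the response. Of the 13 higher members with a promoter entry 8 held ACGTG, as did 3 of the 5 lower members and 4 of the 15 members that did not pass. Over the same 250 bases, 18.7% of all 27305 promoters and 24.5% of 7635 promoters of genes with a kept probe held it. The other core, GCGTG, was found in 3 of the 13 higher members, 2 of the 5 lower ones and 9 of the 15 that did not pass, and in 46.9% of promoters of genes with a kept probe. E-boxes stood in 4 of the 13 higher members, 1 of the 5 lower ones and 0 of the 15 that did not pass, against 9.38% of genes with a kept probe. Of all 40 members with a promoter entry, measured or not, 16 held ACGTG, 15 held GCGTG and 5 held an E-box. The list includes known hypoxia targets, so all genes are not a like baseline for it. All of these counts are matches of letters and say nothing of binding.

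Among the HIF genes, the gene of the second alpha subunit rose while that of the first did not pass by its brightest probe. EPAS1, which encodes HIF-2 alpha, read 5.03, 4.90 and 4.93 in vehicle and 5.42, 5.99 and 6.50 in NU7441 arrays. The groups did not overlap, and the NU7441 arrays were spread widely. The change was 1.02 ± 0.20 (SE, limma adjusted p = 0.00127), and it lay between 0.74 and 1.31 with any 1 array left out. For EPAS1 the change was 0.47 both without background correction and in the authors' deposited table, and 0.59 with an offset of 50, past the threshold each time. HIF1A, which encodes HIF-1 alpha, had 3 kept probes. The brightest read 6.29, 6.25 and 6.38 in vehicle and 6.26, 6.28 and 6.58 in NU7441 arrays, which overlapped, at 0.07 ± 0.12 (limma adjusted p = 0.699, 95% interval -0.19 to 0.32). The dimmest read 5.15, 5.31 and 5.42 against 5.65, 5.58 and 5.85, with no overlap, at 0.40 ± 0.12 (limma adjusted p = 0.0194). The remaining probe stood at 0.27 ± 0.14 (limma adjusted p = 0.157). All 3 estimates were above 0, and the probes differed in call.

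EGLN1, the main prolyl hydroxylase that marks HIF alpha subunits, was lower, with all 3 NU7441 arrays, between 4.72 and 4.96, under the vehicle arrays, between 5.07 and 5.38. The change was -0.34 ± 0.12 (limma adjusted p = 0.0433), just inside the threshold. Leaving out vehicle replicate 1 or 3, or NU7441 replicate 1 or 2, ended the call (limma adjusted p = 0.181, 0.0977, 0.133 and 0.0634). The EGLN1 call was lost in 13 of 19 alternatives in all, among them no background correction, at -0.13. ARNT, the shared beta subunit, was detected on 1 of 6 arrays and EGLN3, a hydroxylase known as a strong hypoxia target, on 0 of 6, so neither was tested.

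Glucose transporter genes differed from each other. SLC2A1, which encodes the widely used transporter GLUT1, rose from 8.78, 8.85 and 8.70 to 9.58, 9.32 and 9.39. The arrays did not overlap, and the change was 0.65 ± 0.12 (SE, limma adjusted p = 0.000676), or 1.57-fold. SLC2A3, which encodes the high-affinity transporter GLUT3, ran from 6.43 to 7.03 in vehicle and from 6.40 to 6.53 in NU7441 arrays, at -0.26 ± 0.14 (limma adjusted p = 0.169, 95% interval -0.56 to 0.04). It passed as lower without vehicle replicate 2 (limma adjusted p = 0.0403).

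The 15 glycolytic enzymes all had a kept probe, with 5 higher, 3 lower and 7 that did not pass, and a median of 0.20. That is 33.3% higher and 20% lower, where 17.7% of all genes were higher and 18.9% lower. The lower share was thus near that of all genes. Of the hexokinase genes, which act at the first step, HK2, the inducible hexokinase of tumour cells, was lower. Its brightest probe read 5.93, 5.77 and 5.55 in vehicle and 4.36, 4.38 and 4.97 in NU7441 arrays. All NU7441 arrays lay below all vehicle arrays, and only 1 of the 3 was detected. The change was -1.18 ± 0.16 (limma adjusted p = 8.55e-05), a size that rests on NU7441 arrays mostly at background and on a probe kept through its vehicle arrays. It was -0.47 without background correction and -0.76 with the mean of both probes. The dimmer probe read 5.25, 5.28 and 5.37 against 5.32, 4.68 and 4.88, at -0.34 ± 0.15 (limma adjusted p = 0.0856). That probe was low on NU7441 replicates 2 and 3 but not on replicate 1, so the probes differed in call though not in sign. HK1, the constitutive hexokinase, was at 0.29 ± 0.12 (limma adjusted p = 0.078) and passed as higher in 6 alternatives, among them without NU7441 replicate 1 (limma adjusted p = 0.0488). HK1 ran from 8.24 to 8.46 in vehicle and from 8.51 to 8.83 in NU7441 arrays.

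The middle steps held few calls before aldolase. GPI, which isomerises glucose 6-phosphate, was at 0.07, and the phosphofructokinase genes PFKL, PFKM and PFKP were at 0.28, -0.24 and 0.04, none past the threshold. PFKL passed as higher without NU7441 replicate 2 (limma adjusted p = 0.0309), and PFKM as lower with 75th percentile scaling over all probes (limma adjusted p = 0.0203). Both measured aldolase genes, which encode the enzymes that split the six-carbon sugar, rose. ALDOC read 6.93, 6.77 and 7.03 in vehicle and 8.01, 7.71 and 7.47 in NU7441 arrays, without overlap, a change of 0.82 ± 0.14 (limma adjusted p = 0.000495). ALDOA rose by 0.49 ± 0.12 (limma adjusted p = 0.00483), with a second probe at 0.39 that passed too.

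Of the genes for the three-carbon steps, GAPDH was higher and PGAM1 and ENO1 were lower. GAPDH, often used as a reference gene, read 11.28, 11.42 and 11.31 in vehicle and 11.66, 11.68 and 11.58 in NU7441 arrays on its brightest probe. These did not overlap, at 0.30 ± 0.11 (limma adjusted p = 0.0442). Its other probes stood at 0.44 ± 0.11 (limma adjusted p = 0.00726) and 0.15 ± 0.12 (limma adjusted p = 0.343). The brightest probe lost its call without vehicle replicates 1, 2 or 3 (limma adjusted p = 0.131, 0.0626 and 0.118) and without NU7441 replicates 1 or 2 (limma adjusted p = 0.0917 and 0.114). TPI1, triose phosphate isomerase, stood at -0.08 and 0.34 on its probes and PGK1, phosphoglycerate kinase, at 0.20 and -0.11, with none past the threshold.

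PGAM1, phosphoglycerate mutase, fell on both of its probes. The brighter read 9.24, 9.23 and 9.39 in vehicle and 8.72, 8.52 and 8.68 in NU7441 arrays, and the dimmer 8.08, 8.20 and 8.23 against 7.63, 7.47 and 7.43. Neither pair of groups overlapped, and the changes were -0.65 ± 0.11 (limma adjusted p = 0.000632) and -0.66 ± 0.11 (limma adjusted p = 0.0005). The call of PGAM1 held in every alternative run.

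The enolase genes went opposite ways. ENO1, the housekeeping isozyme, read 11.78, 11.80 and 11.77 in vehicle and 11.57, 11.50 and 11.31 in NU7441 arrays, a change of -0.33 ± 0.11 (limma adjusted p = 0.0369). ENO2, the neuronal isozyme that is also a known hypoxia target, read 5.86, 5.62 and 6.05 against 6.41, 6.39 and 6.53, a change of 0.60 ± 0.13 (limma adjusted p = 0.00234). Neither gene's arrays overlapped between groups. The ENO1 call was lost without vehicle replicates 1, 2 or 3 (limma adjusted p = 0.0841, 0.0995 and 0.0826) and without NU7441 replicates 2 or 3 (limma adjusted p = 0.0717 and 0.0943). It was lost with both forms of 75th percentile scaling too, at -0.10 when scaled on detected probes. ENO2 kept its call in every alternative run, with a change of 0.33 without background correction and in the authors' deposited table.

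The last step, pyruvate kinase, rose on all 3 probes of PKM. Its brightest probe read 8.13, 8.41 and 8.02 in vehicle and 8.83, 8.75 and 9.12 in NU7441 arrays, which did not overlap. The change was 0.71 ± 0.14 (limma adjusted p = 0.00112), with the other probes at 0.63 and 0.50, both past the threshold. The probe names do not say which splice form each reads. Whether related sequences elsewhere in the genome, which GAPDH, PGAM1, ENO1 and LDHA are known to have, add to these probes was not tested.

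**Figure D2:**
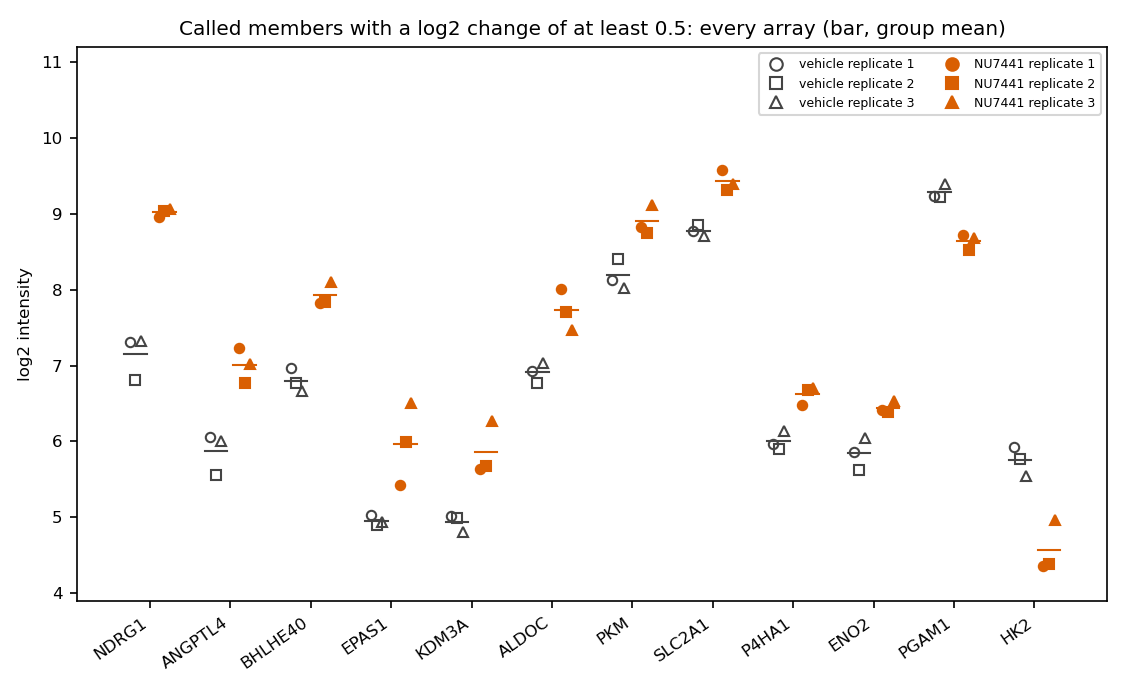
Log2 intensity (y axis) on every array for the 12 genes that passed the test with a log2 fold change of at least 0.5 in size (x axis), with open grey symbols for vehicle, filled orange symbols for NU7441 and bars for group means. In all 12 genes the NU7441 arrays lie on 1 side of the vehicle arrays, 10 of them above and 2 below. That separation is largely fixed by choosing the genes on these same arrays, and 49.9% of all genes had no overlap. EPAS1 shows the wide spread from 5.42 to 6.50.

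The regulators of glycolytic flux gave no call. PFKFB3 and PFKFB4, which make the activator of phosphofructokinase, were at -0.10 (95% interval -0.34 to 0.15) and 0.11 (95% interval -0.13 to 0.36). A second PFKFB3 probe stood at -0.03. PFKFB2 had 3 probes, none of which was kept.

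Beyond pyruvate, LDHA, the lactate dehydrogenase subunit that favours lactate production, was lower. Its brightest probe read 11.51, 11.52 and 11.45 in vehicle and 11.03, 11.12 and 11.15 in NU7441 arrays, with no overlap, a change of -0.40 ± 0.11 (limma adjusted p = 0.0113). The next probe, at -0.36 ± 0.12 (limma adjusted p = 0.0324), passed as well, and the dimmest, at -0.18 ± 0.11 (limma adjusted p = 0.241), did not. The call of LDHA was lost when arrays were scaled on detected probes, at -0.20 (limma adjusted p = 0.171). LDHB, the other subunit, was at -0.19 (limma adjusted p = 0.24, 95% interval -0.45 to 0.07), and PDK3, a kinase that shuts off pyruvate dehydrogenase, was at 0.04 and -0.01 on its probes. PDK1, the kinase best known as a HIF target, was detected on 0 of 6 arrays and PDK2 on 4 of 6. The lactate transporters SLC16A1 and SLC16A3 were not analysed here.

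The other hypoxia targets, which lie outside glucose metabolism, were higher or did not pass. Of 13 listed 11 were measured, 7 were higher and 0 lower, where 17.7% of all genes were higher and 18.9% lower, and the median was 0.44. The members were chosen with earlier results of these data known, so this excess over all genes is not independent. The 28 measured other HIF pathway and hypoxia genes, given below, had 25% higher, 17.9% lower and a median of -0.01. ADM was lower in 6 alternatives, among them the background and variance settings. Fold sizes of dim genes depended on background correction, without which the median was 0.29.

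NDRG1, a stress-responsive gene known to rise in hypoxia, changed most among the members. It read 7.31, 6.82 and 7.32 in vehicle and 8.96, 9.04 and 9.07 in NU7441 arrays. The groups lay far apart, at 1.87 ± 0.14 (SE, limma adjusted p = 5.68e-07), or 3.65-fold. BHLHE40, a transcription repressor of the circadian and hypoxia responses whose promoter is shown above, read 6.97, 6.77 and 6.67 against 7.83, 7.84 and 8.11, also without overlap. Its change was 1.12 ± 0.13 (limma adjusted p = 1.74e-05).

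ANGPTL4, a secreted inhibitor of lipoprotein lipase, read 6.06, 5.56 and 6.01 in vehicle and 7.24, 6.76 and 7.02 in NU7441 arrays on its brighter probe. That is a change of 1.13 ± 0.15 (limma adjusted p = 8.44e-05) between groups that did not overlap. The dimmer probe read 4.65, 4.93 and 4.82 against 5.16, 4.90 and 5.16, which overlapped, at 0.28 ± 0.12 (limma adjusted p = 0.0961). The mean of both probes was at 0.70 and passed, as did the brighter probe at 0.69 without background correction.

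The demethylase gene KDM3A and both measured genes of collagen prolyl 4-hydroxylase were higher. KDM3A, a histone H3 lysine demethylase, read 5.01, 4.99 and 4.81 in vehicle and 5.63, 5.67 and 6.27 in NU7441 arrays, with no overlap. The change was 0.92 ± 0.16 (limma adjusted p = 0.000463), and 0.40 without background correction. P4HA1, a catalytic subunit of collagen prolyl 4-hydroxylase, read 5.97, 5.90 and 6.13 against 6.48, 6.68 and 6.70, at 0.62 ± 0.12 (limma adjusted p = 0.00112), and 0.37 without background correction. P4HA2, its paralogue, lay between 6.36 and 6.72 in vehicle and between 6.85 and 7.10 in NU7441 arrays, at 0.44 ± 0.13 (limma adjusted p = 0.0141), again without overlap, and 0.29 without background correction. Its second probe, at 0.26 ± 0.13, did not pass (limma adjusted p = 0.137). Leaving out vehicle replicate 3 or NU7441 replicate 2 ended the P4HA2 call (limma adjusted p = 0.081 and 0.0601), as did 75th percentile scaling over all probes. The collagen lysyl hydroxylase genes PLOD1 and PLOD2 did not pass, at -0.05 and 0.17. PLOD2 ran from 7.52 to 7.72 in vehicle and from 7.77 to 7.91 in NU7441 arrays, without overlap. A dimmer PLOD2 probe, at 0.24, did not pass either (limma adjusted p = 0.437).

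ANKRD37, an ankyrin repeat gene known as a hypoxia target, stood at 0.44 ± 0.16 at the edge of the threshold (limma adjusted p = 0.0499). NU7441 replicate 2, at 5.04, lay within the vehicle range of 4.95 to 5.17, and replicates 1 and 3 read 5.55 and 5.80. The call was lost without vehicle replicates 1, 2 or 3 (limma adjusted p = 0.136, 0.146 and 0.0674) and without NU7441 replicates 1 or 3 (limma adjusted p = 0.109 and 0.179). The ANKRD37 call was lost in 12 of 19 alternatives in all, and it held at 0.65 without NU7441 replicate 2.

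The well-known hypoxia markers ADM and VEGFA were not called. ADM, the vasodilator peptide adrenomedullin, was at -0.29 ± 0.12 (limma adjusted p = 0.0825), with NU7441 arrays of 8.80, 8.44 and 8.75 all below the lowest vehicle array, 8.92. VEGFA, the angiogenic growth factor, was at 0.05 (95% interval -0.29 to 0.38) and -0.06 on its probes, both near background. CA12, a carbonic anhydrase, had a probe detected on 3 of 6 arrays and was not tested, and CA9 was not analysed here.

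**Figure D3:**
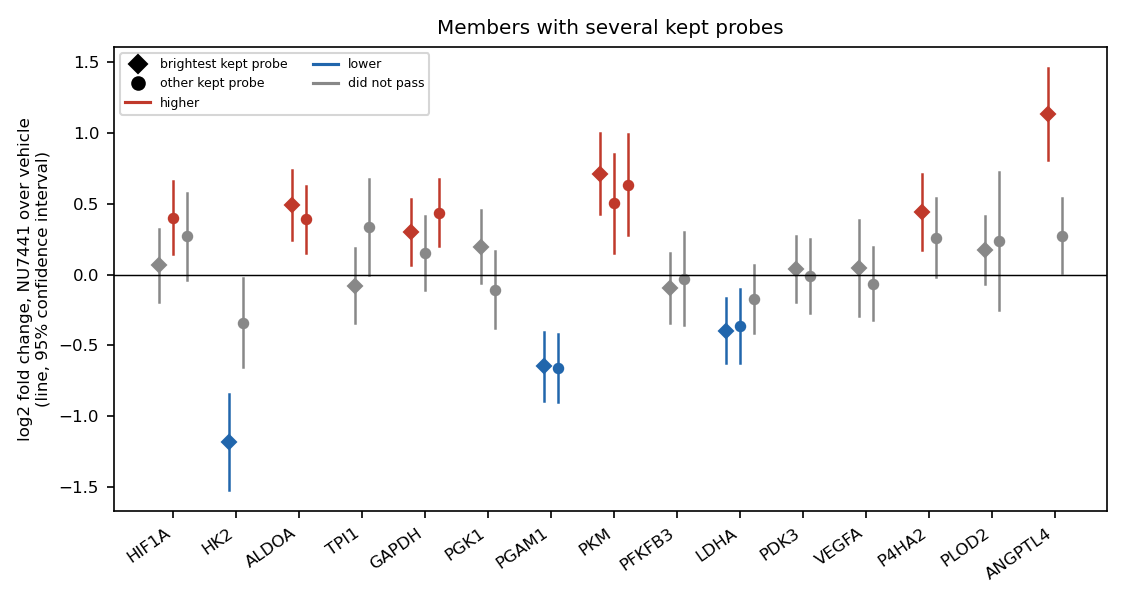
Log2 fold change of NU7441 over vehicle (y axis) for each kept probe of the 15 genes with several (x axis), with diamonds for the brightest probe, circles for the others and lines for 95% confidence intervals. In 9 genes all probes had the same call, in 6 the calls differed, and in 0 were probes called in opposite directions.

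Set side by side, the enzymes had calls both ways, the lower share near that of all genes, and the other targets leaned upward. The median over the enzymes, as deviation from each gene's vehicle mean, was 0.19, 0.00 and 0.20 on NU7441 replicates 1, 2 and 3, and between -0.01 and 0.02 on the vehicle arrays. For the other hypoxia targets it was 0.48, 0.56 and 0.71, and between -0.08 and 0.07 on the vehicle arrays. The vehicle values are held small because deviations are taken from the vehicle arrays' own mean. Their range therefore cannot judge a NU7441 array. Without NU7441 replicate 2 the enzymes' median log2 fold change was 0.20. With 75th percentile scaling over all probes the enzymes' median log2 fold change was 0.056, and leaving out NU7441 replicate 1 gave 0.11. The difference between the lists is a description, and it was not tested.

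**Figure D4:**
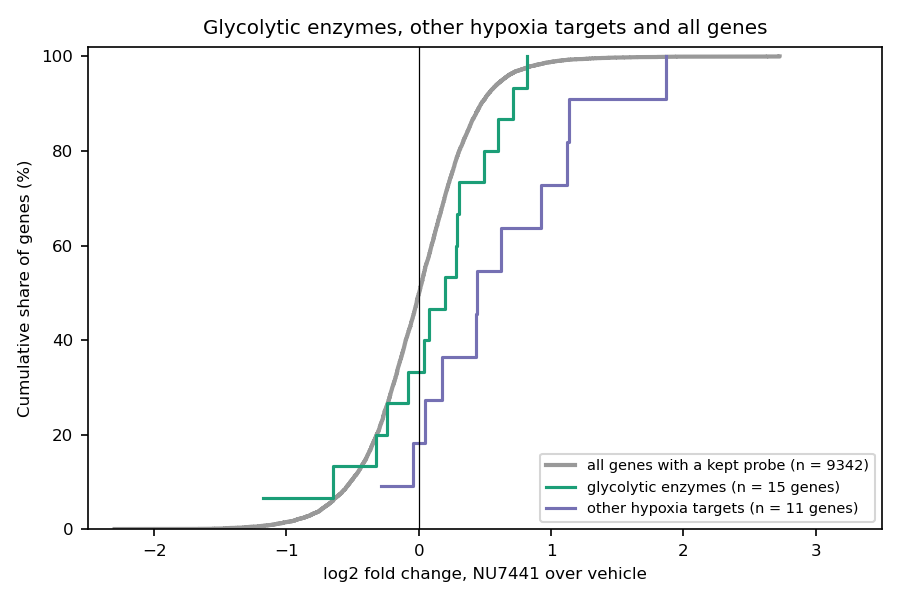
Cumulative share of genes in percent (y axis) by log2 fold change of NU7441 over vehicle (x axis) for 15 glycolytic enzymes, 11 other hypoxia targets and 9342 genes with a kept probe. The curve of the other targets, with a median of 0.44, lies to the right of that of all genes over most of its range. The curve of the enzymes, with a median of 0.20, crosses that of all genes on the left through HK2 and PGAM1. It meets it again on the right, since the enzymes end at 0.82 and the other targets at 1.87, while all genes run to 2.73.

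Further genes of these pathways, listed by function, lay closer to the background. Of 36 other glycolysis and pyruvate genes 18 were measured, and the median was 0.05. Of these, 5 were higher (27.8%) and 2 lower (11.1%), where 17.7% of all genes were higher and 18.9% lower. PGD, an enzyme of the pentose phosphate pathway, rose by 0.72 ± 0.12 (SE, limma adjusted p = 0.000335), from a mean of 8.33 ± 0.13 to 9.04 ± 0.07 (SD, n = 3). BSG, the chaperone of lactate transporters, rose by 0.57 ± 0.13 (limma adjusted p = 0.00384), and MPC1, a subunit of the mitochondrial pyruvate carrier, by 0.49 ± 0.14 (limma adjusted p = 0.0117). A dimmer MPC1 probe, at 0.24, did not pass. PGM2, a phosphopentomutase, was lower at -0.48 ± 0.11 (limma adjusted p = 0.00508). The remaining calls, named after their values were seen, were PGM1 at 0.45, SLC2A12, detected on none of the vehicle arrays and at least 1.14-fold higher (limma adjusted p = 0.0488) but kept through its NU7441 arrays, so that the filter partly fixes its call, and ADPGK at -0.39.

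Of 44 other HIF pathway and hypoxia genes 28 were measured, 7 were higher (25%) and 5 lower (17.9%), with a median of -0.01. BNIP3L, a mitophagy receptor, read between 6.33 and 6.67 in vehicle and between 7.55 and 7.69 in NU7441 arrays, at 1.07 ± 0.12 (limma adjusted p = 1.97e-05), with a second probe at 1.03. DDIT4, an inhibitor of mTORC1 signalling, rose by 0.99 ± 0.13 (limma adjusted p = 8.25e-05), and ANKZF1, a factor of ribosome quality control, by 0.69 ± 0.13 (limma adjusted p = 0.00105). EGLN2, another HIF prolyl hydroxylase, was lower, at -0.75 ± 0.13 (limma adjusted p = 0.00071), with a second probe at -0.43 that passed as well. The remaining calls were named after their values were seen. Higher were WSB1, EFNA1, CITED2 and INSIG2, at 0.64, 0.62, 0.41 and 0.34. The CITED2 arrays overlapped between groups (limma adjusted p = 0.0376), and INSIG2 lay close to the threshold (limma adjusted p = 0.0466). Lower were HILPDA, ELOC, ERO1A and JMJD6, at -0.58, -0.42, -0.37 and -0.33, with JMJD6 also close to the threshold (limma adjusted p = 0.0393). HILPDA, a lipid droplet protein, and ERO1A, an oxidase of protein folding, are known hypoxia targets, and ELOC is part of the ligase complex that removes HIF alpha subunits. VHL, the substrate receptor of that ligase, did not pass on any of 3 probes, at 0.20, 0.11 and 0.21.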

How the data were processed

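Biotin-labelled cRNA was hybridised, per the labels' protocols. The submitters' processing notes name GenomeStudio, lumi and R 3.0.2 without their settings. Linear intensity values without normalization across arrays were deposited for each probe, beside the detection p-value that the file headers name. They also deposited a table of log2 values, which differed by at most 0.0612 from log2 intensities after quantile normalization and had a median of 6.22 in each column. It served as an alternative.

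The intensity values were background corrected by limma 3.58.1 in R 4.3.3 (normexp, negative controls inferred from detection p-values, offset 16) and quantile normalized, and fold changes of dim probes are shrunk by the offset. The filter kept 14973 of 47323 probes. GEO's platform annotation gave 30112 probes 1 symbol, 8 several and 17203 none, and such a probe is unnamed here, not without a gene. The test was lmFit and eBayes on group alone, with p-values adjusted by Benjamini-Hochberg over the kept probes. It was run on simulated data with independent noise and few changed probes. That run did not model normalization, scaling or spread shared between samples. Members with a change of at least 0.5 past the threshold, or with probes that differ in call, are given in full, and of the other pathway lists the 4 largest changes. Members and lists were chosen with earlier results of these data known.

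Alternatives were other background corrections and scalings, detection filters, probe summaries and variance models, a stricter threshold, the replicate number as a block and leaving out each array. The scaling over probes detected on all arrays was chosen after seeing the data. Promoters and motifs come from RefSeq tables on GRCh38.p14, with 40 of 45 members matched. Figures were drawn with matplotlib 3.10.9.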

Additional observations from a re-analysis of the deposited data

How the results depend on the processing

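With any 1 array left out, 1772 to 2540 probes were higher and 1996 to 2561 lower, 11 to 13 members were higher and 3 to 5 lower, 4 to 5 enzymes were higher and 2 to 3 lower, and 5 to 6 other hypoxia targets were higher and 0 to 0 lower. The median was 0.11 to 0.23 for the enzymes and 0.44 to 0.60 for the other targets. Without background correction, with an offset of 50 and in the authors' table, 1 other target was lower and their median was 0.29, 0.33 and 0.30. With 75th percentile scaling over all probes 1 was lower and the enzymes' median was 0.056, and 1 was lower with trend and robust variance and with array weights. In each of these 6 cases the lower target was ADM. With scaling over probes detected on all arrays, 2 members were lower and the other targets' median was 0.57. At an adjusted p below 0.01, which counts fewer by construction, 1383 probes were higher and 1637 lower, and 2 members were lower. Deviations of same-numbered arrays correlated at -0.113, 0.046 and -0.066, and those of differently numbered arrays between -0.081 and 0.149. With 3 arrays a group these values cannot decide whether the numbers pair the samples. The replicate block left 3 called lower members, ENO1, EGLN1 and GAPDH losing their calls, and changed no other call of a member. The cause of these shifts was not tested, except for the stricter threshold. Of 683 values of single members under 19 alternatives 620 kept their side of the threshold and 0 calls changed sign. A block for the slide could not be fitted, since the files used here name no slide. HK2 has no value where detection was asked on all 6 arrays. Signal over background limits VEGFA, EGLN1, ANKRD37, EPAS1, KDM3A and the dimmer HK2, ANGPTL4 and LDHA probes.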
